A study of Sus scrofa with 6 samples.

Results

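The genes described here are 10 genes that hypoxia is known to induce and that lie outside glycolysis: ADM, VEGFA, NDRG1, DDIT4, BNIP3L, BHLHE40, EGLN1, EGLN3, KDM3A and STC2. They were chosen by name, and every probe set whose annotated gene symbol was exactly one of these names was taken. This gave 15 probe sets of 7 genes, out of 23999 probe sets and 6790 named genes compared in all. VEGFA had 4 probe sets, EGLN1 had 3, BNIP3L, BHLHE40 and KDM3A had 2 each, and ADM and DDIT4 had 1 each. NDRG1, EGLN3 and STC2 matched no probe set by symbol and were not analysed here. The annotation entered the DDIT4 probe set under 2 gene IDs that both carried the symbol DDIT4.

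RNA was taken from IPEC-1 cells, a non-transformed epithelial line from the small intestine of newborn piglets, and hybridized to 6 GeneChip Porcine Genome Arrays. The 3 ALI cultures (air-liquid interface) had only a thin film of liquid on their apical side, and the 3 SMC cultures (submerged culture) stood under a column of medium. Both were grown on porous supports and kept in serum-free medium with the same supplements before RNA isolation. Passages P109, P111 and P113 were each represented by 1 ALI and 1 SMC array (replicates 1, 2 and 3). The replicates therefore stand for 3 passages of 1 cell line. Without the passage as a block, the p-values measure the spread between the arrays of these passages within a culture. With it, they measure the spread of the ALI minus SMC difference between these passages. The arrays served to compare gene expression between the 2 culture forms.

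Cells sense oxygen through prolyl hydroxylases, which mark the alpha subunit of the hypoxia-inducible factor (HIF) for destruction while oxygen is present. When oxygen is scarce, the alpha subunit is no longer marked, enters the nucleus, pairs with ARNT and switches on genes that carry its binding site. The best known of these genes encode glycolytic enzymes and glucose transporters. A further group, to which the genes described here belong, encodes secreted vessel-active factors, brakes on growth and respiration, and feedback enzymes of the pathway itself.

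All values are log2 signals, and each log2 difference is the ALI mean minus the SMC mean, given with its standard error (SE). The median log2 signal per array lay between 6.33 and 6.38, and the lowest 25% of the signals of an array lay below 4.52 to 4.61. A signal in that lowest 25% was not shown to be above background. In bulk RNA of a culture, fewer cells that express a gene and less RNA of it per cell cannot be told apart. The labels give the jejunum as the source and IPEC1 as the cell line, while a free-text field speaks of liver, which was not used. The epithelial markers EPCAM, CDH1 and KRT8 had mean log2 signals of 13.39, 12.77 and 13.66 in ALI cells, against 13.32, 12.87 and 13.54 in SMC cells. Of 19 measured epithelial and enterocyte markers, 3 were in the lowest 25% on all 6 arrays, namely the tight junction protein TJP1 and the enterocyte fatty acid binding proteins FABP1 and FABP2. The enterocyte markers APOA1, SLC5A1, VIL1 and ANPEP were above the lowest 25% on every array, while APOA4 was within it on 3 of the 6.

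In ALI cells ADM, DDIT4 and BHLHE40 had a lower signal than in SMC cells, by 2.52-fold to 3.36-fold. The differences of EGLN1 (-0.68), BNIP3L (-0.31), KDM3A (-0.14) and VEGFA (0.21) did not pass the test. Of the 7 genes, 3 were called lower and none higher at an adjusted p under 0.05 (limma, Benjamini-Hochberg over all 23999 probe sets). Of all 6790 genes, 103 (1.52%) were called lower and 69 (1.02%) higher. With the passage as a block in the fit, the same 3 genes were called lower, against 3.76% of all genes lower and 2.24% higher. The limma adjusted p in that fit was 0.00274 for ADM, 0.00161 for DDIT4 and 0.00367 for BHLHE40. In 4 of the 7 genes (ADM, DDIT4, BHLHE40 and EGLN1) the ALI values lay below the SMC values without overlap, which held for 10.9% of all genes. Without the adjustment, 8 of the 15 probe sets had a lower signal in ALI at a p under 0.05 (53.3%), against 7.57% of all probe sets. The median log2 difference of the 7 genes was -0.68, against 0.01 for all genes.

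**Figure D1:**
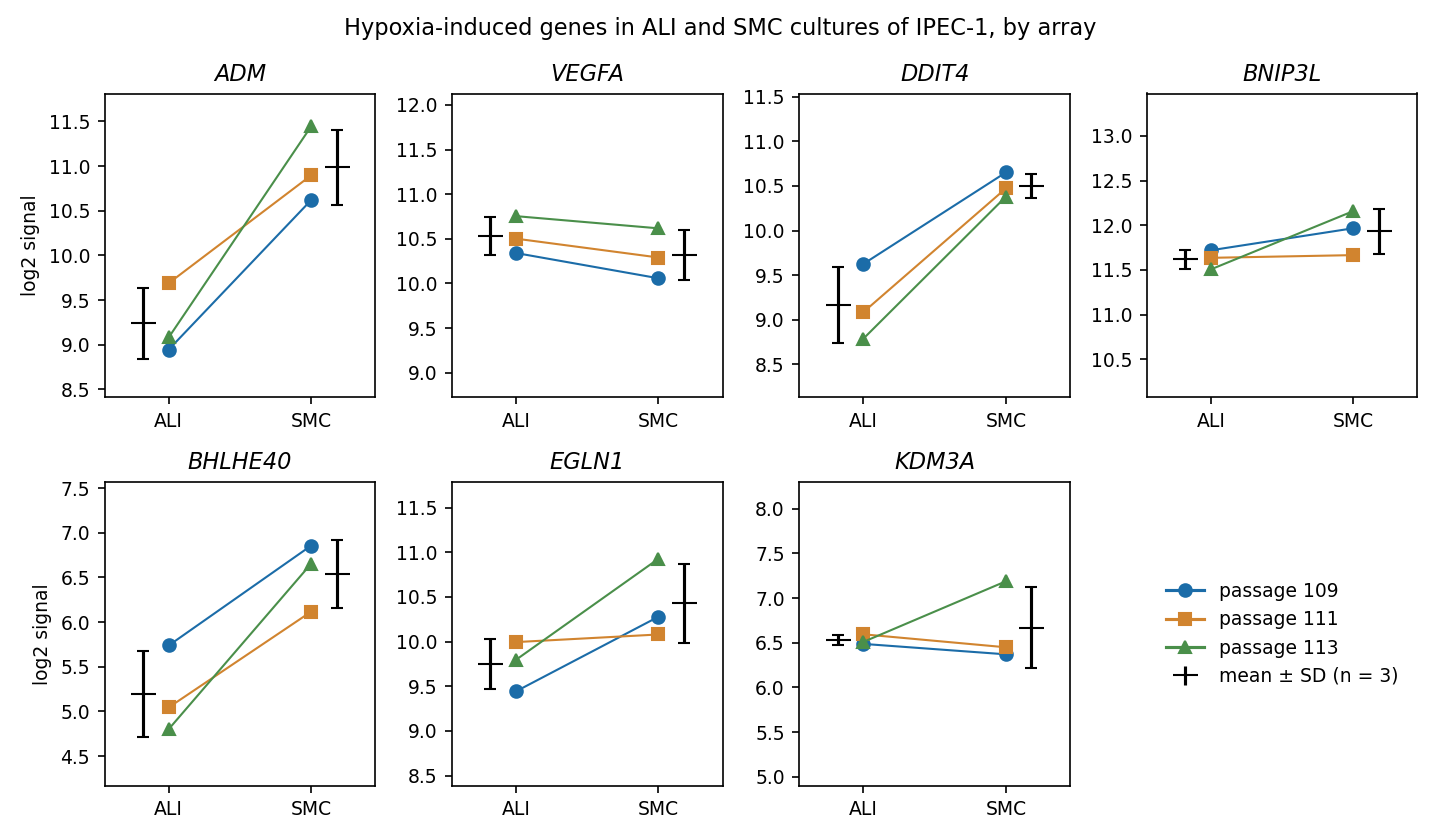
Log2 signal of the probe set with the highest mean for each of the 7 genes, in ALI (left) and SMC (right) cultures. Each line joins the 2 arrays of a passage, and the black marks give the mean and SD of 3 arrays. The ALI and SMC values of ADM, DDIT4, BHLHE40 and EGLN1 do not overlap, while those of VEGFA, BNIP3L and KDM3A do.

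Among the secreted factors, ADM encodes adrenomedullin, a peptide that widens blood vessels and also acts on epithelial cells. Its log2 signal was 8.95, 9.69 and 9.08 in ALI cells at P109, P111 and P113, against 10.62, 10.90 and 11.44 in SMC cells. Every ALI value lay below every SMC value. The means were 9.24 ± 0.396 in ALI and 10.99 ± 0.420 in SMC cells (SD, n = 3 arrays each). The difference was -1.75 log2 units (SE 0.25, 95% interval -2.32 to -1.18, limma adjusted p = 0.0159), or a 3.36-fold lower signal in ALI. In size this placed ADM among the lowest 0.103% of the 6790 genes by log2 difference. The call was lost without ALI replicate 1 (adjusted p = 0.0783) or SMC replicate 2 (0.0791), at log2 differences of -1.60 and -1.79.

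VEGFA encodes the vascular endothelial growth factor, the classical angiogenic target of HIF, and its 4 probe sets gave different pictures. The brightest (Ssc.10015.1.A1_at) had log2 signals of 10.34, 10.50 and 10.75 in ALI cells at the 3 passages, against 10.06, 10.29 and 10.62 in SMC cells. Here ALI was the higher culture in each of the 3 passages, but the groups overlapped, since both cultures had their highest signal at P113. The log2 difference was 0.21 (SE 0.17, 95% interval -0.17 to 0.59, limma adjusted p = 0.631). This interval, not adjusted for the number of probe sets, holds for this probe set only. The lower limits of the other VEGFA probe sets were further from 0, between -0.55 and -0.31.

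The second VEGFA probe set by signal (Ssc.15740.1.S2_at) had a log2 difference of 0.03 (SE 0.15, 95% interval -0.31 to 0.37). A dimmer one (Ssc.15740.2.S1_a_at) had signals of 5.62, 5.71 and 5.68 in ALI against 6.08, 5.89 and 6.01 in SMC cells. Its groups did not overlap, with ALI the lower culture, but the log2 difference of -0.32 (SE 0.10) did not pass the test over all probe sets (limma adjusted p = 0.188). The fourth (Ssc.15740.2.A1_at) was in the lowest 25% on all 6 arrays and is not read further. The 2 brightest VEGFA probe sets followed each other over the 6 arrays (r = 0.828), while the brightest and the dimmer one without overlap did not (r = -0.447). These correlations are over 6 arrays of 2 cultures and are descriptions only.

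Of 8 measured genes for receptors and relatives of ADM and VEGFA, none was called in either direction, and 4 were in the lowest 25% on all arrays. KDR, the main VEGF receptor of endothelial cells, had mean log2 signals of 3.72 in ALI and 3.80 in SMC cells. The largest differences in this list were those of RAMP1, a receptor activity-modifying protein, at 0.38 (limma adjusted p = 0.166), and of VEGFB, a relative of VEGFA, at -0.29 (0.336). The list's median log2 difference was 0.06.

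DDIT4 encodes REDD1, a brake on the growth kinase complex mTORC1. Its log2 signal was 9.63, 9.09 and 8.79 in ALI cells at P109, P111 and P113, against 10.65, 10.47 and 10.38 in SMC cells. The groups were separated by 0.75 on the log2 scale, the distance between the highest ALI and the lowest SMC value. The means were 9.17 ± 0.424 in ALI and 10.50 ± 0.138 in SMC cells (SD, n = 3 arrays each). The log2 difference was -1.33 (SE 0.20, 95% interval -1.79 to -0.87, limma adjusted p = 0.0192), a 2.52-fold lower signal in ALI. Leaving out ALI replicate 2, SMC replicate 1 or SMC replicate 2 ended the call (adjusted p = 0.0557, 0.0623 and 0.1003), with log2 differences from -1.26 to -1.35.

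DDIT4 is also a target of ATF4, the transcription factor of the integrated stress response. Of 13 measured genes of that response, none was called higher and 1 was lower, namely PSPH, which releases serine from phosphoserine, at -0.84 (limma adjusted p = 0.0145). With the passage as a block, 4 of them were called lower, adding VLDLR (adjusted p = 0.00288 against 0.0684 without the block), ASNS (0.00579 against 0.263) and CEBPG (0.0461 against 0.253). The call of PSPH was lost without ALI replicate 1 or SMC replicate 2 (adjusted p up to 0.0822). DDIT3, which encodes the stress factor CHOP, had signals of 7.64, 7.54 and 7.67 in ALI against 8.32, 7.87 and 8.01 in SMC cells, which differed by -0.45 (adjusted p = 0.159). Of 13 measured genes of mTORC1 and its control, none was called, and the list's median log2 difference was -0.01. The 2 genes farthest from 0 in that list encode 14-3-3 proteins, YWHAZ at -0.31 (adjusted p = 0.269) and YWHAB at 0.31 (adjusted p = 0.320).

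BHLHE40, also called DEC1, encodes a transcriptional repressor that links hypoxia to the circadian clock. Its brighter probe set (Ssc.8947.1.S1_at) had log2 signals of 5.74, 5.04 and 4.80 in ALI cells at the 3 passages, against 6.86, 6.12 and 6.65 in SMC cells. No value of one culture reached into the range of the other. The means were 5.19 ± 0.486 in ALI and 6.54 ± 0.382 in SMC cells (SD, n = 3 arrays each). The log2 difference was -1.35 (SE 0.26, 95% interval -1.95 to -0.74, limma adjusted p = 0.0470), a 2.54-fold lower signal in ALI. The lowest ALI signal, at P113, was close to the lowest 25% of the array signals. The second probe set (Ssc.25624.1.S1_at) had 5.18, 4.97 and 5.26 in ALI against 5.42, 5.43 and 5.37 in SMC cells. It pointed the same way without overlap, but with a log2 difference of -0.27 (SE 0.11, limma adjusted p = 0.316). The 2 probe sets therefore differed about the size of the change, and their mean gave a log2 difference of -0.81 (limma adjusted p = 0.0458). Of the 6 fits with 1 array left out, only that without ALI replicate 1 kept the call of the brighter probe set (adjusted p = 0.0429), and the other 5 gave 0.0831 to 0.132. Of 7 measured genes of the circadian clock, none was called, and their median log2 difference was 0.12. NFIL3 and RORA, the 2 farthest from 0, had log2 differences of -0.45 (adjusted p = 0.362) and -0.32 (0.347).

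BNIP3L encodes NIX, a receptor on the outer mitochondrial membrane that hands mitochondria to autophagosomes. Its brighter probe set had log2 signals of 11.72, 11.63 and 11.51 in ALI cells, against 11.97, 11.67 and 12.16 in SMC cells. The groups overlapped, as the SMC signal at P111 lay below the ALI signal at P109. The log2 difference was -0.31 (SE 0.14, 95% interval -0.64 to 0.02, limma adjusted p = 0.371). The second probe set had 9.23, 8.94 and 9.21 in ALI against 9.70, 9.25 and 9.86 in SMC cells, a log2 difference of -0.48 (SE 0.17, limma adjusted p = 0.243). Here the ALI values all lay below the SMC values. With the passage as a block its adjusted p was 0.0512. Among 15 measured genes of mitophagy and autophagosome formation, none was called. ATG7, an activating enzyme of autophagosome formation, had a log2 difference of -0.57 (adjusted p = 0.0882, and 0.0229 with the passage as a block). BECN1, which encodes beclin 1, had one of 0.20 (adjusted p = 0.428).

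EGLN1 encodes PHD2, the main oxygen-sensing prolyl hydroxylase of HIF, and is itself induced by HIF as a feedback. The brightest of its 3 probe sets (Ssc.5854.1.S1_at) had log2 signals of 9.44, 9.99 and 9.80 in ALI cells at P109, P111 and P113, against 10.28, 10.08 and 10.93 in SMC cells. The ALI values lay below the SMC values without overlap, but the 2 cultures were nearly level at P111. The log2 difference was -0.68 (SE 0.23, 95% interval -1.21 to -0.16, limma adjusted p = 0.219). The other probe sets gave -0.63 (SE 0.30, adjusted p = 0.384) and -0.50 (SE 0.17, adjusted p = 0.234). All 3 followed each other over the 6 arrays, with r between 0.895 and 0.929. With the passage as a block the adjusted p became 0.0816, 0.0813 and 0.0493, so that only the dimmest probe set (Ssc.6432.2.S1_at) passed the test in that fit.

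The other components of the oxygen-sensing machinery were compared as well. Of 10 measured HIF subunits and regulators, 1 was called higher and none lower, and the list's median log2 difference was -0.11. The gene called was ARNT2, a partner subunit of HIF known from neurons, with 5.75, 5.53 and 5.58 in ALI against 4.78, 4.87 and 4.56 in SMC cells. These SMC signals were above the lowest 25% of their arrays but close to it, most of all at P113. The difference was 0.88 log2 units (SE 0.12, limma adjusted p = 0.0136, and 0.0713 without ALI replicate 1). EGLN2, which encodes the prolyl hydroxylase PHD1, had a log2 difference of 0.22 (adjusted p = 0.424). EPAS1, which encodes HIF-2 alpha, had one of -0.28 (adjusted p = 0.519). The brightest of 4 HIF1A probe sets had one of -0.15 (adjusted p = 0.626), while a dimmer one gave -1.39 (adjusted p = 0.0407). The ALI signals of that dimmer one were 5.03, 4.70 and 4.52, the last of them in the lowest 25% of its array. The remaining ones gave -0.02 and -0.39 and were in the lowest 25% on 6 and 4 arrays. The probe sets of HIF1A thus differed.

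KDM3A encodes a histone demethylase of H3K9 that needs oxygen to work. Its brighter probe set had log2 signals of 6.49, 6.59 and 6.51 in ALI cells, against 6.37, 6.45 and 7.19 in SMC cells. The SMC culture of P113 stood above the other 5 arrays, and the remaining SMC values lay below all ALI values. The log2 difference was -0.14 (SE 0.20, 95% interval -0.61 to 0.33, limma adjusted p = 0.811), and it was 0.12 without SMC replicate 3. The second probe set gave -0.22 (SE 0.15, adjusted p = 0.551). Of 7 other oxygen-dependent histone demethylases, none was called, with a median log2 difference of 0.02. KDM4B, another demethylase that hypoxia induces, had a log2 difference of -0.49 (adjusted p = 0.296, and 0.0476 with the passage as a block), and KDM2A had one of -0.24 (adjusted p = 0.448).

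**Figure D2:**
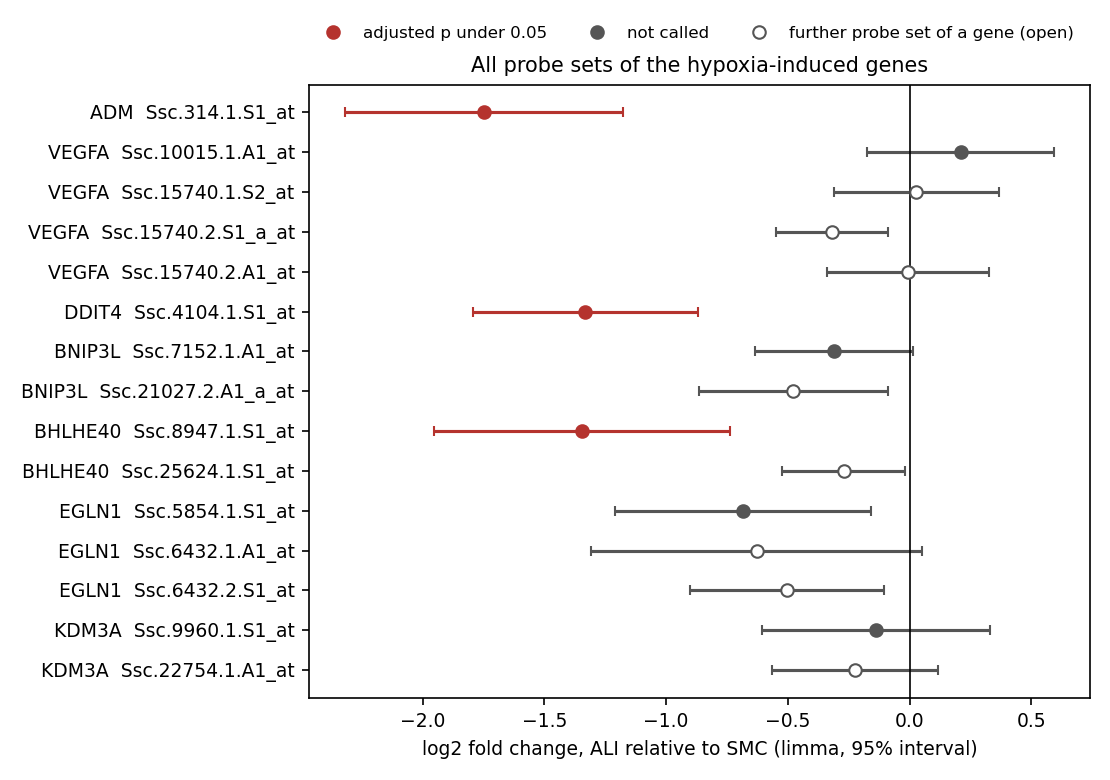
Log2 difference of ALI relative to SMC cells for all 15 probe sets, with the 95% interval from limma, which is not adjusted for the number of probe sets. Filled points are the brightest probe set of each gene, open points its further probe sets, and red marks an adjusted p under 0.05. Of the 15 probe sets, 13 lie below 0, and the 2 brightest of VEGFA lie above it.

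Counted over probe sets, 13 of 15 (86.7%) had a log2 difference below 0. By gene this held for 6 of the 7, against 3259 of all 6790 genes. Below 0 at each of the 3 passages were 11 of the 15 probe sets. Of all genes, 49.2%, 55.1% and 42.3% were below 0 at P109, P111 and P113 taken singly, and the share below 0 at all 3 was not computed. In 8 of the 15 the ALI values lay below the SMC values without overlap (53.3%), against 9.27% of all probe sets. Probe sets of 1 gene measure the same transcripts, so that these counts rest on 7 genes. At an adjusted p under 0.05, 3 of the 15 probe sets were lower and 0 higher, against 1.23% and 0.663% of all probe sets. With the passage as a block these were 4 lower and 0 higher, against 3.32% and 2%.

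The size of the difference varied between the passages. In the brightest probe set of each of the 7 genes, the signed difference of ALI minus SMC was lowest at P113, which held for 26.3% of all 6790 genes. For VEGFA, at 0.28, 0.21 and 0.14 at P109, P111 and P113, the lowest difference was the one nearest 0. Not all further probe sets were lowest at P113. Ssc.6432.1.A1_at of EGLN1 (-0.94) and Ssc.15740.2.S1_a_at of VEGFA (-0.46) were lowest at P109. Ssc.25624.1.S1_at of BHLHE40 was lowest at P111 (-0.46) and nearest 0 at P113 (-0.11). The remaining ones were lowest at P113. For ADM this difference was -1.67, -1.21 and -2.36 on the log2 scale at P109, P111 and P113. For EGLN1 it was -0.83, -0.09 and -1.13. The median over the 7 genes was -0.83, -0.09 and -1.13 at the 3 passages, in each case the value of EGLN1, while the median over all genes was 0.00, -0.04 and 0.05.

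The SMC array of P113 had the highest SMC signal of 5 of the 7 genes, among them ADM, EGLN1 and KDM3A, and that of P111 of none. Over all genes these shares were 33.5% at P113 and 32.9% at P111. Averaged over the 7 genes, each centred on its mean over the arrays, the log2 signal was -0.34, -0.31 and -0.49 in ALI and 0.30, 0.18 and 0.67 in SMC cells at P109, P111 and P113. These averages spanned a narrower range in ALI than in SMC cultures. With 1 array per culture and passage, the difference between passages was not tested.

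**Figure D3:**
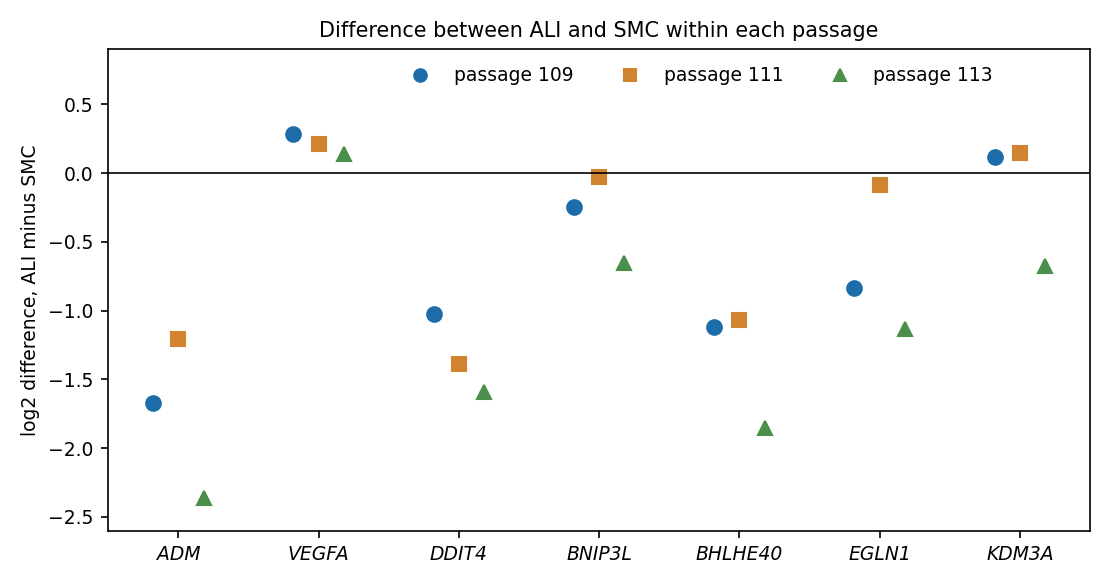
Difference of log2 signal, ALI minus SMC, within each passage for the brightest probe set of the 7 genes. In every gene the lowest point is P113, and ADM spans -2.36 to -1.21. VEGFA lies above 0 at all 3 passages.

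Other hypoxia-induced genes outside glycolysis were compared from a list of 40, of which 25 were measured. In ALI cells 3 were called lower and 1 higher, and the median log2 difference was -0.16. ERO1A, an oxidase of disulfide formation in the endoplasmic reticulum, had log2 signals of 7.05, 7.28 and 6.99 in ALI against 9.85, 9.11 and 8.88 in SMC cells, lower by a log2 difference of -2.18 (SE 0.23, limma adjusted p = 0.00521). P4HA2 and PLOD1, which hydroxylate collagen at proline and lysine, were lower at -1.85 (adjusted p = 0.00305) and -1.25 (adjusted p = 0.0266). TF, the iron carrier transferrin, was higher at 1.43 (adjusted p = 0.0412).

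With the passage as a block, 6 genes of this list were called lower, adding ANKRD37 (adjusted p = 0.0131 against 0.255 without the block), FAM162A (0.0444 against 0.0990) and KDM4B. ERO1A and P4HA2 kept their calls without each of the 6 arrays, while PLOD1 passed in only 2 of these 6 fits (adjusted p up to 0.116) and TF in only 1 (up to 0.141). CA9, a carbonic anhydrase strongly induced by HIF in many tumours, had a log2 difference of -0.16 (adjusted p = 0.692), and its name was chosen after its value was seen.

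The glycolytic hypoxia-induced genes were measured for 16 of 22 listed. Of these, 8 were called lower and none higher, with a median log2 difference of -0.73, against -0.68 for the 7 genes outside glycolysis. Under the block by passage 10 were called lower, adding the glycolytic kinase genes PFKL (adjusted p = 0.0204 against 0.0554 without the block) and HK1 (0.0136 against 0.125). LDHA, which turns pyruvate into lactate, had the largest change in this list at -2.24 (limma adjusted p = 0.0035). ALDOC, SLC2A3, ENO1, PGK1 and TPI1 followed with -1.61 to -1.75 (adjusted p = 0.00292 to 0.00447), and leaving out any 1 array kept the calls of these 6 genes. The smallest median difference of ALI and SMC was at P111 in this list, as in the 7 genes, with -0.91, -0.68 and -1.01 at the 3 passages. In the other non-glycolytic list it was at P109, with -0.19, -0.26 and -0.29. Unlike in the 7 genes, 68.8% of the glycolytic genes had their lowest difference at P109 and 31.2% at P113. In the other non-glycolytic list these shares were 32% and 40%, and over all genes 31% and 26.3%. Whether glycolytic and non-glycolytic genes differ in their response was not tested.

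**Figure D4:**
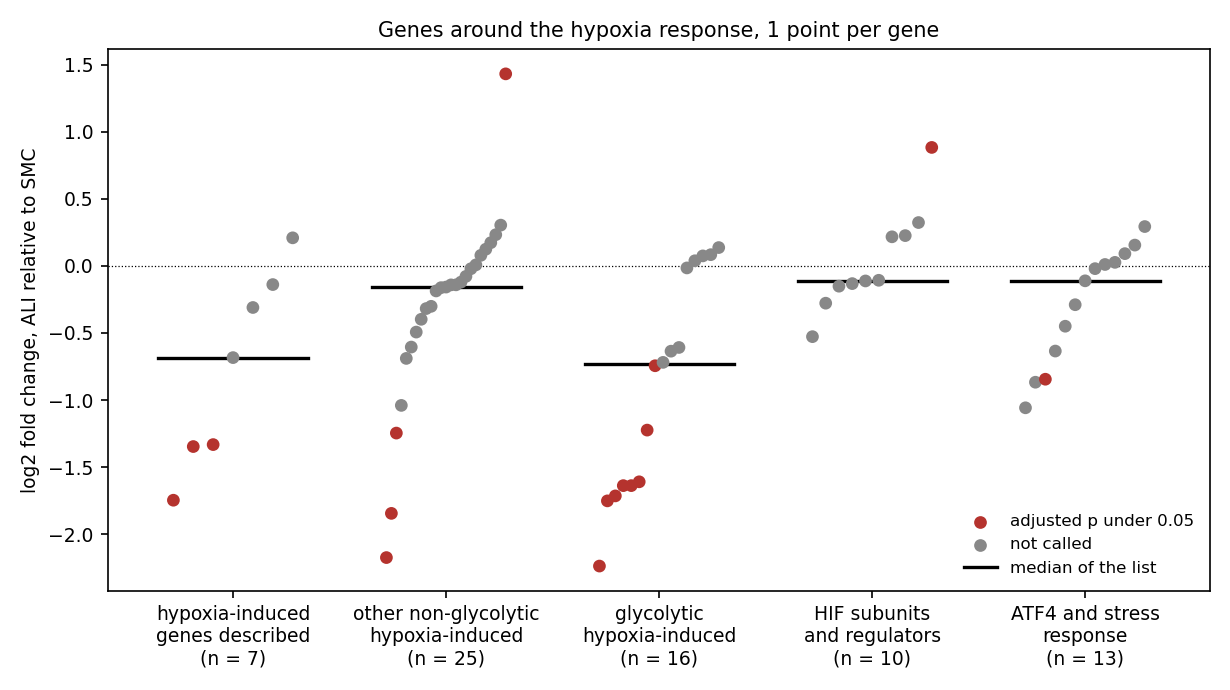
Log2 difference of ALI relative to SMC cells for the genes of 5 lists, 1 point per gene, with red for an adjusted p under 0.05 and a black line at the median. The medians are -0.68 for the 7 genes described, -0.16 for the other non-glycolytic and -0.73 for the glycolytic hypoxia-induced genes, -0.11 for the HIF subunits and regulators and -0.11 for the stress response.

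Relatives of the genes without a probe set were few. NDRG2, a relative of NDRG1, had a log2 difference of 0.05 (SE 0.30, limma adjusted p = 0.961), and STC1, a relative of STC2, was in the lowest 25% on all 6 arrays. The 5 genes whose signal over the 6 arrays most resembled the mean of the 7 genes were TTC3, SKA2, CDC42BPA, ECD and GPD2, with Pearson's r from 0.975 to 0.988. Their log2 differences were -0.29, -1.06, -0.52, -1.03 and -0.83. The arrays of both cultures enter these correlations, so that any gene lower in ALI tends to score high.

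Markers of other cell types were listed beside the 3 genes called lower. Of 19 epithelial and enterocyte markers, none was called, and their summed signal was 15.77 to 15.81 in ALI and 15.69 to 15.90 in SMC cells (log2). The 2 farthest from 0 were SLC5A1, the intestinal sodium-glucose cotransporter, at -0.54 (adjusted p = 0.220), and VIL1, which encodes villin, at -0.45 (adjusted p = 0.332). Of 17 markers of fibroblasts and smooth muscle, 2 were called lower, ACTG2 at -2.66 (adjusted p = 0.0158) and POSTN at -1.50 (adjusted p = 0.0485). Their summed signal was 13.26 to 13.65 in ALI and 13.82 to 14.06 in SMC cells, where the brightest of them, FN1, had means of 13.16 in ALI and 13.60 in SMC cells. Of the 17, 10 had a log2 difference above 0, and the median was 0.07. In the lowest 25% on all arrays were 4 of the 17, among them DCN, LUM and FAP, which mark fibroblasts. Other fibroblast markers were above it on every array, such as COL1A2 (means of 7.56 in ALI and 7.33 in SMC cells) and PDGFRB (7.55 and 8.05).

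Of 11 immune markers, AIF1 was called lower at -0.64 (adjusted p = 0.0248), with a summed signal of 10.64 to 10.84 in ALI and 11.25 to 11.33 in SMC cells. AIF1 was the brightest of them, with means of 10.50 in ALI and 11.14 in SMC cells, while 7 of the 11 had a log2 difference above 0 and the median was 0.09. PTPRC, the pan-leukocyte marker, was in the lowest 25% on all arrays. Of 9 endothelial markers, PECAM1 was called lower at -0.50 (adjusted p = 0.0448), with a summed signal of 8.935 to 9.044 in ALI and 9.001 to 9.147 in SMC cells, and CDH5 and KDR were in the lowest 25% on all arrays. With 1 array left out in turn, ACTG2 passed the test in 5 of the 6 fits, POSTN in 2, AIF1 in 1 and PECAM1 in 0 (adjusted p up to 0.0810, 0.180, 0.123 and 0.149). The part of ACTG2, POSTN, AIF1 and PECAM1, or of the cells that express them, in the lower signal of ADM, DDIT4 and BHLHE40 was not tested.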

How the data were processed

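RNA of 3 ALI and 3 SMC cultures of IPEC-1 was measured on Affymetrix porcine arrays. According to the methods, the authors used GCOS, checked the arrays with arrayQualityMetrics and normalized them by GC-RMA. In the submitters' processing notes GCOS has version 1.1.1. The authors deposited log2 values of 24123 probe sets, with no normalization named and no detection calls used here, and these were taken as they are. Without 124 control probe sets, 23999 were compared by culture type in limma (version 3.58.1, R 4.3.3, functions lmFit and eBayes), a call being an adjusted p under 0.05. The fit was tested on simulated data. The methods' t-test was run as an alternative.

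Gene symbols came from the platform annotation, which gave 1 symbol to 10110 probe sets, several to 157 and none to 13732. A gene was represented by its brightest probe set, that of the highest mean. Named are all members, from each other list up to 6 called genes or else the 2 farthest from 0, and the 5 genes most like the members' mean. Further genes of the lists were named after their values were seen. The members and lists were chosen with earlier results of these data known.

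According to the labels, every passage has 1 ALI and 1 SMC array. The deviations of these pairs from their group means correlated at 0.34, 0.14 and 0.451. Arrays of different passages gave -0.424 to 0.219. The highest of these, ALI replicate 2 with SMC replicate 1, lay above the 0.14 of P111. The main fit had culture type only and did not use the pairing, which entered the alternative fit with the passage as a block. That fit is given for the 3 members called, and elsewhere mainly where it changed a call. Arrays have no sequencing depth, so that the precision is limited by how many there are. With 3 arrays per culture the smallest p of an exact permutation test is 0.1, and none was run.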

Additional observations from a re-analysis of the deposited data

How the results depend on the processing

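The count of 3 genes called lower and 0 higher was the same with the passage as a block, after quantile normalization or median centring, with a mean log2 value above 4, with an intensity trend and when the probe sets of a gene were averaged. With a mean above 6 it was 2 lower, as BHLHE40 was not tested there. The block by passage called 480 probe sets higher and 796 lower in all, and 152 genes higher and 255 lower. The methods' t-test called 0 members, 0 probe sets and 0 genes in either direction after Benjamini-Hochberg adjustment. Unadjusted, it called 3 member genes and 5 member probe sets lower, 1468 probe sets higher and 1423 lower in all, and 480 genes higher and 481 lower.

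Part of the calls was lost when 1 array was left out. Then 0 to 2 member genes and 0 to 2 member probe sets were called lower, none of them without SMC replicate 2. Without that array the log2 differences of ADM, DDIT4 and BHLHE40 were -1.79, -1.35 and -1.56, and 39 of all genes were called lower, against 103 in the main fit. Over the fits with 1 array left out, 42 to 174 of all probe sets were called higher and 71 to 258 lower. Among all genes these were 18 to 54 higher and 30 to 107 lower. Fits with both arrays of a passage left out were an alternative added after the data were seen. In them 0 member genes and 0 member probe sets were called lower without P109 or P111, and 2 of each without P113. Calls over all genes were not counted in these fits, so these counts have no share to be set against. Without P109 the log2 differences of DDIT4 and BHLHE40 were -1.49 and -1.46. The log2 differences of ADM, DDIT4, BHLHE40, BNIP3L and EGLN1 stayed below 0 in every fit.

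Signs turned only near 0. VEGFA was -0.022 when its probe sets were averaged. Its second probe set (Ssc.15740.1.S2_at) was -0.047 to 0.17 with 1 array left out and -0.075 without P111, and the dimmest (Ssc.15740.2.A1_at) was -0.13 to 0.11 and 0.17 without P113. KDM3A was -0.29 to 0.12 with 1 array left out and 0.13 without P113, and NDRG2 was -0.25 to 0.39. The passage as a block changed no other call of a member probe set than that of EGLN1 given above. The causes were not tested.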
